A study of Mus musculus with 8 samples.

Results

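The 8 genes described here encode the giant spring titin, proteins of the M-band, the kinase SPEG and chaperones of sarcomeric myosin. They are *Ttn*, *Myom1*, *Myom2*, *Myom3*, *Obsl1*, *Speg*, *Smyd1* and *Unc45b*, chosen by gene symbol among the 16686 genes of the deposited table. All 8 were found, and all 8 passed the filter on low counts that left 12542 genes for testing.

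The M-band is the transverse structure in the middle of the sarcomere, where neighbouring thick filaments are linked to each other. Titin runs from the Z-disc to the M-band and carries passive tension, the myomesins bridge myosin filaments and bind the end of titin, and obscurin-like 1 binds both. Myosin heads reach their folded state with the help of UNC45B and HSP90, and SMYD1, a methyltransferase found at the M-band, acts with them. Fast myosin-binding protein C, the protein that the studied mice lack, sits on the thick filament on either side of the M-band and binds both myosin and titin.

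RNA was sequenced from the tibialis anterior (TA), a fast-twitch muscle of the lower leg, of male FVBN mice aged 22 months by their age labels, from which an entry on housing in the labels differs. WTOld comprised 4 wild-type muscles and C2-/-Old 4 muscles of mice in which exons of *Mybpc2* are replaced by a neomycin cassette in every cell of the body. No group received a treatment, and both shared strain, sex, age and tissue. The methods count muscles, so where muscles came from the same mouse the p-values measure only the spread between muscles. The comparison asks whether loss of fast myosin-binding protein C in old muscle goes with a change of these genes.

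Expected counts summed to between 25425993 and 29747692 per library, and expression is given as CPM, counts scaled to library size, after TMM scaling. *Mybpc2* was between 4963 and 7390 CPM in WTOld and between 3.85 and 38.3 CPM in C2-/-Old, so every library matched its label. The tissue label was checked against fibre markers. The 9 fast fibre markers summed to between 142571 and 201511 CPM in WTOld and between 149519 and 177470 CPM in C2-/-Old, and the 8 slow fibre markers to between 68.1 and 113 CPM over all 8 muscles. In WTOld 1 and WTOld 2, long transcripts were low, which touches several of the genes below, and values without both libraries are given beside those with them.

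Promoter sequence is shown for *Ttn* and *Obsl1*, the pair with the highest Pearson's r among the 8 genes before the length trend was removed. *Myom3* is shown as well, with r of −0.22 to *Ttn* and −0.32 to *Obsl1* over 8 muscles. Without the 2 muscles farthest from the median of 1 gene of the pair, these r were 0.49 and 0.48. Each line holds the 250 bases before the start of the gene in RefSeq (GRCm38.p6), read 5′ to 3′ on the strand of the gene, with matches to the E-box CANNTG in capitals. The *Ttn* sequence is chr2:76982548-76982797 on the minus strand, the *Obsl1* sequence is chr1:75506453-75506702 on the minus strand, and the *Myom3* sequence is chr4:135759465-135759714 on the plus strand.
Ttn: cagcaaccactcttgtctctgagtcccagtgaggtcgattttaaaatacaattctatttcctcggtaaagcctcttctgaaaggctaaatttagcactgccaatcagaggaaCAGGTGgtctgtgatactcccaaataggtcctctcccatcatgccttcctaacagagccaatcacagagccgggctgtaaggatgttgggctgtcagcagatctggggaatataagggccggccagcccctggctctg
Obsl1: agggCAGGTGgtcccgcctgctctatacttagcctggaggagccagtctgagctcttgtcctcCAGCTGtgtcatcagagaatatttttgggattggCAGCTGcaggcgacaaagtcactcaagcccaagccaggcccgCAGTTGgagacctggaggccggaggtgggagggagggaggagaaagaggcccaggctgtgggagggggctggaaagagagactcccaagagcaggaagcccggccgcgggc
Myom3: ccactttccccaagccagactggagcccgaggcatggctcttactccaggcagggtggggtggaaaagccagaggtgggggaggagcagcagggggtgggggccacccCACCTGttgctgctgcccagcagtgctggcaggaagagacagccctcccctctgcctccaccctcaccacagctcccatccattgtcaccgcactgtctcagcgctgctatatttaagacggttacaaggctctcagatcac

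The E-box is the core that myogenic basic helix-loop-helix factors recognise, and CATTCC is the core of the MCAT element recognised by TEAD factors. *Ttn* held 1 E-box, *Obsl1* held 4 and *Myom3* held 1, and none of these windows held CATTCC on either strand. Over the 7 genes with an entry, which have 10 windows, 9 windows held an E-box, against 66.2% of all 32536 different windows of the table. CATTCC was found in 2 of the 10 windows, both of *Speg*, against 12.6% of all windows. *Speg* accounts for 4 of the 10 windows. The E-box reads the same on both strands, and no match overlapped another kind of match. No entry was used for *Myom2*.

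In the authors' TPM, which divide by transcript length, the 8 genes ran from the highest mean to the lowest in the order *Myom2*, *Myom1*, *Smyd1*, *Speg*, *Unc45b*, *Ttn*, *Obsl1* and *Myom3*. *Myom2*, the M-protein of fast fibres, was at 537 ± 170 TPM in WTOld and 598 ± 131 TPM in C2-/-Old (SD, n = 4 each). *Myom1*, the myomesin of all striated fibres, was at 461 ± 122 TPM and 464 ± 65.8 TPM (SD, n = 4 each). *Myom3*, the myomesin of slow and type IIa fibres, was at 4.58 ± 1.12 TPM and 3.88 ± 0.756 TPM (SD, n = 4 each). *Myom2* exceeded *Myom1* in 8 of 8 muscles, although their ranges over muscles overlapped.

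*Ttn* was at 67.2 ± 34.6 TPM in WTOld and 83.1 ± 17.2 TPM in C2-/-Old (SD, n = 4 each), below both myosin chaperone genes in 8 of 8 muscles. Its TPM rests on the length assigned to a gene with 14 listed transcripts, the longest of 107 kb. *Speg* and *Unc45b* were neighbours in the order that did not differ beyond their spread, with *Speg* higher in 6 of 8 muscles. *Smyd1* and *Speg* were separated in all 8 muscles, and so were *Obsl1* and *Myom3*.

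**Figure D1:**
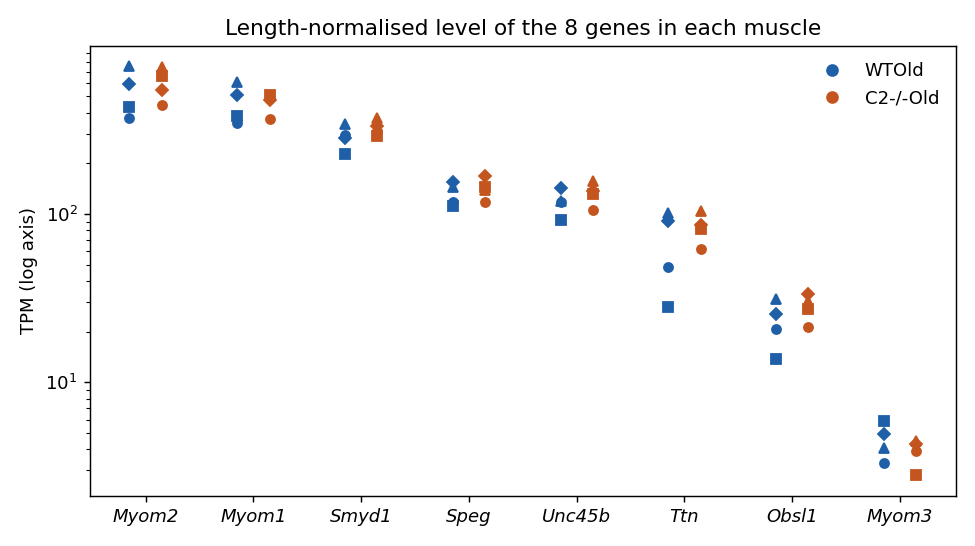
TPM of each gene (log axis) in the 4 WTOld muscles (blue) and the 4 C2-/-Old muscles (orange), with genes ordered by their mean and marker shapes for the muscle number. *Myom2* lies at the top and *Myom3*, between 2.81 and 5.92 TPM, at the bottom, and the colours overlap for every gene.

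Loss of *Mybpc2* was not accompanied by a detectable change in the RNA of any of the 8 genes. With an adjusted p under 0.05 and more than 1.5-fold, 0 of the 8 were called by edgeR's quasi-likelihood test, against 0.0319% of the 12542 genes tested. No gene of the 8 had an unadjusted p under 0.05 (0 of 8), against 5.29% of all genes, and 0 of the 8 had CPM values that did not overlap between the genotypes, against 3.38%. limma-voom and DESeq2 also called 0 of the 8 by either threshold. The log2 fold change was above 0 for 6 genes and below 0 for 2, with a median of 0.10. Over all genes tested, 5738 were above 0 and 6804 below, with a median of −0.02. Without WTOld 1 and WTOld 2, *Smyd1* alone of the 8 stayed above 0. Exact permutation tests of log2 CPM between the genotypes, which allow no p under 0.0286, gave between 0.257 for *Myom3* and 0.914 for *Speg*. In bulk RNA of a muscle, fewer fibres and less RNA per fibre cannot be told apart.

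*Ttn*, gene ID 22138, spans chromosome 2 from 76698169 to 76982564. Its expression was 2422, 1501, 4512 and 4530 CPM in WTOld 1 to 4, and 3046, 3678, 4980 and 3875 CPM in C2-/-Old 1 to 4. WTOld 1 and WTOld 2 held the lowest values of all muscles, while WTOld 3 and WTOld 4 stood above all C2-/-Old muscles except C2-/-Old 3, so the groups overlapped. The log2 fold change was 0.27 (SE 0.32, adjusted p = 0.976 from edgeR, by Benjamini-Hochberg over all genes). Its 95% interval ran from 0.735-fold to 1.96-fold, so a level 1.5-fold higher in C2-/-Old lay inside it. Without WTOld 1 and WTOld 2, the log2 fold change was −0.22.

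*Ttn* varied more between muscles of the same genotype than most genes with a mean count of at least 1000, a set not matched to its depth. Between 41174 and 140448 counts were assigned to it per library, a 3.32-fold range in CPM. Its SD of log2 CPM within genotypes was 0.58, above that of 96.3% of the 3144 genes with a mean count of at least 1000, whose median SD was 0.20. The coefficient of variation was 47% in WTOld and 20.7% in C2-/-Old.

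*Myom1*, gene ID 17929, spans chromosome 17 from 71002288 to 71393284. Its expression was 1031, 1228, 1611 and 1501 CPM in WTOld, and 1086, 1363, 1443 and 1272 CPM in C2-/-Old. The C2-/-Old values all lay inside the range of WTOld. Between the genotypes, the log2 fold change was −0.06 (SE 0.16, adjusted p = 0.989 from edgeR), with a 95% interval from 0.753-fold to 1.23-fold, and −0.27 without WTOld 1 and WTOld 2. These values are of RNA. For the protein, the paper reports significantly more myomesin-1 in TA muscle of aged C2-/- mice than of aged wild-type mice, by Western blot.

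*Myom2*, gene ID 17930, spans chromosome 8 from 15057653 to 15133420. It was at 1045, 1309, 1894 and 1646 CPM in WTOld, and at 1229, 1662, 1997 and 1402 CPM in C2-/-Old. As for *Myom1*, the lowest muscle of each group was number 1 and the highest was number 3, and the groups overlapped. C2-/-Old differed from WTOld by a log2 fold change of 0.09 (SE 0.21, adjusted p = 0.987 from edgeR), and −0.17 without WTOld 1 and WTOld 2. With all 8 muscles, the 95% interval ran from 0.777-fold to 1.47-fold.

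*Myom3*, gene ID 242702, spans chromosome 4 from 135758796 to 135815571 and was counted with 196 to 438 reads per library. It was at 9.56, 16, 11.4 and 14.4 CPM in WTOld, and at 11, 7.29, 12.4 and 11.3 CPM in C2-/-Old. The highest value was that of WTOld 2, the muscle in which *Ttn* was lowest, and the groups overlapped. The genotypes differed by a log2 fold change of −0.29 (SE 0.20, adjusted p = 0.968 from edgeR), with a 95% interval from 0.596-fold to 1.12-fold. It was −0.30 without WTOld 1 and WTOld 2, and below 0 under each of the 18 alternatives.

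The myomesins were also set beside each other within a muscle, where library size plays no part. The ratio of *Myom2* to *Myom1* counts was 1.09 ± 0.0676 in WTOld and 1.21 ± 0.127 in C2-/-Old (SD, n = 4 each), and it varied only 1.37-fold over the 8 muscles. The ratio of *Myom3* to *Myom1* counts was 0.00974 ± 0.00245 in WTOld and 0.00823 ± 0.00203 in C2-/-Old (SD, n = 4 each). Both ratios overlapped between the genotypes.

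The fibre type genes with which the myomesins are associated were compared over the 8 muscles. *Myom1* followed *Myh4*, the myosin heavy chain of type IIb fibres, with r = 0.82 and rho = 0.83 (exact permutation p = 0.0134 and 0.0154), and *Myom2* with r = 0.81 and rho = 0.79 (exact permutation p = 0.0153 and 0.0279). Adjusted over the 9 relations computed, these p-values were 0.0687 and 0.126 for both genes, so neither passed. Without the 2 muscles farthest from the median of *Myh4*, r was 0.65 for *Myom1* and 0.77 for *Myom2*. *Myom3* showed r = −0.07 with *Myh2*, the myosin heavy chain of type IIa fibres (rho = −0.24, exact permutation p = 0.876 and 0.582, adjusted 0.876 and 0.748), and r = 0.27 with the summed slow fibre markers (rho = 0.10, exact permutation p = 0.52 and 0.84, adjusted 0.781 and 0.84). Without the 2 farthest muscles, these r were −0.80 and 0.16. *Atp2a2* and *Tpm3* weigh most in the slow sum, at means of 30.5 and 28.1 CPM in WTOld, against 6.48 CPM for *Myh7*. The sum thus says little about *Myh7* itself.

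*Obsl1* (gene ID 98733), which encodes obscurin-like 1, spans chromosome 1 from 75474674 to 75506658. It was at 66.2, 45.5, 87.1 and 81.2 CPM in WTOld, and at 68.3, 78.5, 92 and 96.8 CPM in C2-/-Old. WTOld 2 was lowest, the highest values were those of C2-/-Old 4 and C2-/-Old 3, and the groups overlapped. The genotypes differed by a log2 fold change of 0.26 (SE 0.20, adjusted p = 0.968 from edgeR), with a 95% interval from 0.882-fold to 1.63-fold. It was −0.01 without WTOld 1 and WTOld 2.

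*Speg* (gene ID 11790), a kinase gene whose product acts at the triad, lies on the same chromosome from 75375297 to 75432320, 42354 bases from *Obsl1*. It was at 551, 544, 649 and 755 CPM in WTOld, and at 555, 633, 635 and 743 CPM in C2-/-Old. Number 4 was highest in both groups, and the ranges nearly coincided. Between the genotypes, the log2 fold change was 0.04 (SE 0.14, adjusted p = 0.995 from edgeR), with a 95% interval from 0.827-fold to 1.27-fold, and it was −0.13 without WTOld 1 and WTOld 2. The ratio of *Speg* to *Obsl1* counts was 9.26 ± 1.95 in WTOld and 7.7 ± 0.562 in C2-/-Old (SD, n = 4 each), with overlapping values.

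*Smyd1* (gene ID 12180), which encodes the methyltransferase and myosin chaperone, spans chromosome 6 from 71213940 to 71262281. It was at 550, 458, 572 and 526 CPM in WTOld, and at 572, 490, 662 and 569 CPM in C2-/-Old. The number 2 muscle was lowest in both groups and the number 3 muscle highest, and the groups overlapped. C2-/-Old differed from WTOld by a log2 fold change of 0.12 (SE 0.12, adjusted p = 0.968 from edgeR), the smallest SE of the 8 genes. Its 95% interval ran from 0.899-fold to 1.32-fold, which leaves out a 1.5-fold change in either direction. The intervals of *Myom1*, *Myom2*, *Speg* and *Unc45b* leave it out as well.

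*Unc45b* (gene ID 217012), the myosin chaperone of striated muscle, spans chromosome 11 from 82911253 to 82943406. It was at 234, 196, 213 and 283 CPM in WTOld, and at 206, 239, 296 and 248 CPM in C2-/-Old. WTOld 2 was lowest, C2-/-Old 3 was highest, and the groups overlapped. Between the genotypes, the log2 fold change was 0.10 (SE 0.15, adjusted p = 0.983 from edgeR), with a 95% interval from 0.85-fold to 1.34-fold. Counts of *Unc45b* per count of *Smyd1* were 0.441 ± 0.0696 in WTOld and 0.433 ± 0.0534 in C2-/-Old (SD, n = 4 each). Without WTOld 1 and WTOld 2, the log2 fold change was 0.06 for *Smyd1* and −0.0028 for *Unc45b*.

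**Figure D2:**
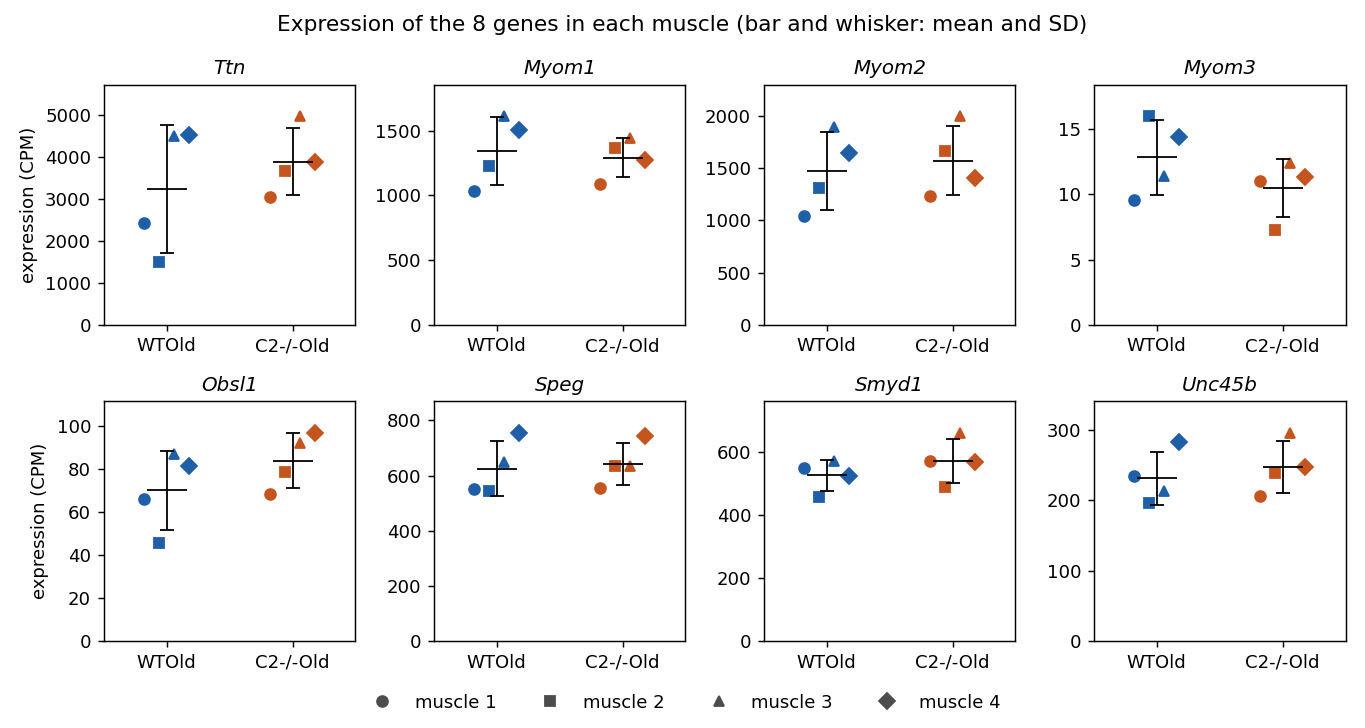
Expression in CPM (axes from 0) of each gene in the 4 WTOld muscles (blue) and the 4 C2-/-Old muscles (orange), with a bar for the mean, whiskers for the SD and marker shapes for the muscle number. The groups overlap in every panel, and *Ttn* has the widest spread in WTOld, from 1501 to 4530 CPM.

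**Figure D3:**
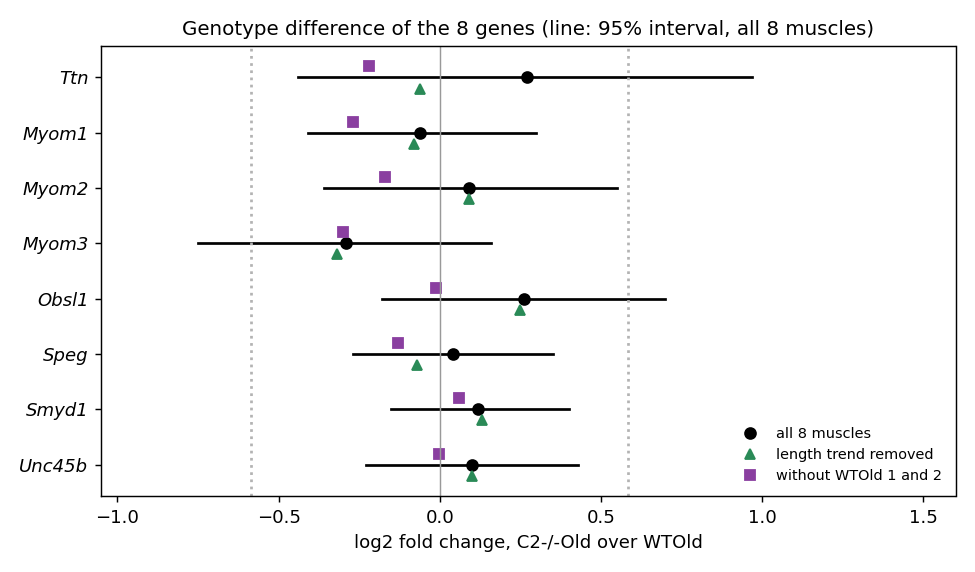
Log2 fold change of C2-/-Old over WTOld for each gene with its 95% interval (black, all 8 muscles), after removal of the trend with transcript length (green) and without WTOld 1 and 2 (purple), with dotted lines at 1.5-fold. Every interval crosses 0, and *Ttn* moves from 0.27 to −0.06 and −0.22.

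Levels of long genes differed between muscles along transcript length. Among 298 other genes with a longest transcript of 10 to 20 kb, the median log2 CPM relative to the mean of the 8 muscles was −0.27, −0.46, 0.29 and 0.10 in WTOld 1 to 4, and −0.09, 0.11, 0.07 and 0.22 in C2-/-Old 1 to 4. Genes of up to 2 kb ran the other way, at 0.08, 0.15, −0.11 and −0.06 in WTOld. Only 11 other tested genes exceed 20 kb, so the trend is poorly determined at the length of *Ttn*. Summed blood markers were 4318 and 6262 CPM in WTOld 1 and WTOld 2, 481 and 775 CPM in WTOld 3 and WTOld 4, and 3760, 904, 1474 and 5881 CPM in C2-/-Old 1 to 4. They were thus high in WTOld 1, WTOld 2 and C2-/-Old 1, the 3 muscles in which the 10 to 20 kb genes lay below 0, and also in C2-/-Old 4, where these genes lay above 0. The part of blood in the length trend was not tested.

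*Ttn* and *Obsl1* had the highest Pearson's r with the 10 to 20 kb genes over the 8 muscles, which was not so for *Ttn* by rho or without the farthest muscles. For *Ttn*, r was 0.91 and rho 0.62 (exact permutation p = 0.0029 and 0.115, adjusted over 8 genes 0.0116 and 0.184). For *Obsl1*, whose longest transcript is 5.68 kb, r was 0.92 and rho 0.79 (exact permutation p = 0.00139 and 0.0279, adjusted 0.0111 and 0.112). Without the 2 muscles farthest from the median of the trend, r was 0.54 for *Ttn* and 0.74 for *Obsl1*, so the relation of *Ttn* rests partly on those muscles. *Speg*, with a longest transcript of 10.8 kb, had r = 0.78 and rho = 0.79 (exact permutation p = 0.0244 and 0.0279, adjusted 0.065 and 0.112). *Myom1* had r = 0.69 and rho = 0.71 (exact permutation p = 0.0605 and 0.0576, adjusted 0.0969 and 0.154), and r without the 2 farthest muscles was 0.71 for *Myom1* and 0.60 for *Speg*. The 5 genes other than *Ttn*, *Obsl1* and *Speg* had r between −0.30 for *Myom3* and 0.69, with no adjusted p under 0.0969 by exact permutation.

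Removing each library's trend with length, by a smooth fit over all tested genes, lowered the SD of *Ttn* within genotypes from 0.58 to 0.23 and its range over the muscles from 3.32-fold to 1.55-fold. For *Speg*, the SD fell from 0.20 to 0.13. It also fell for the shorter *Obsl1* (0.34 to 0.27), *Myom1* (0.24 to 0.19) and *Myom2* (0.34 to 0.30). *Myom3* (0.33 before and 0.36 after), *Smyd1* (0.16 and 0.17) and *Unc45b* (0.22 and 0.22) hardly moved. With the trend as an offset in the test, the log2 fold change was −0.06 for *Ttn* and −0.07 for *Speg*, against 0.27 and 0.04 without it, and with lengths capped at 20 kb it was 0.15 for *Ttn*.

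**Figure D4:**
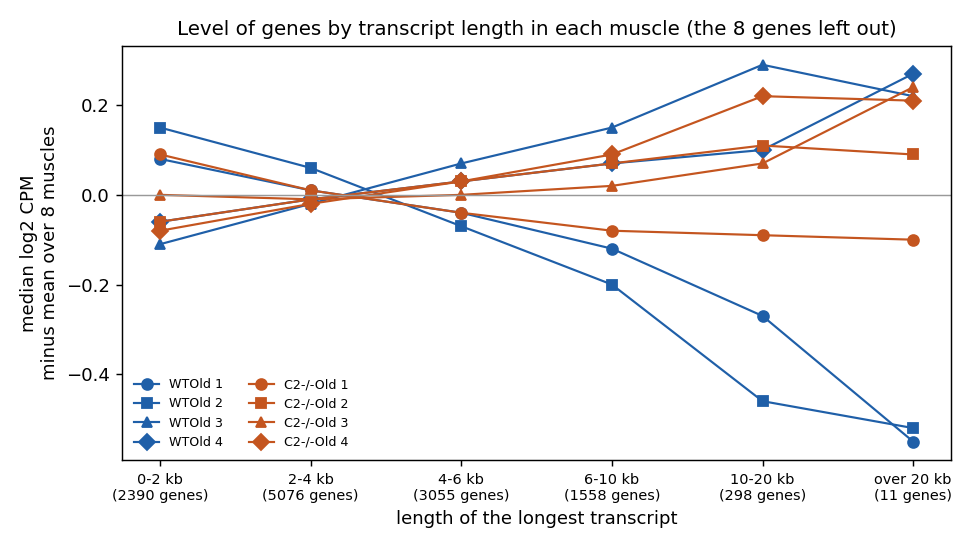
Median log2 CPM relative to the mean of the 8 muscles (vertical axis) for genes grouped by the length of their longest transcript in kb (horizontal axis), with a line for each WTOld muscle (blue) and each C2-/-Old muscle (orange). In the 10 to 20 kb class WTOld 2 lies at −0.46 and WTOld 1 at −0.27, below the other 6 muscles.

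*Neb*, another long sarcomere transcript, was low in the same muscles. It encodes the thin filament protein nebulin, has a longest transcript of 22.5 kb, and was at 2450, 2586, 6444 and 6280 CPM in WTOld, and at 3900, 5609, 6291 and 5600 CPM in C2-/-Old. WTOld 1 and WTOld 2 were the lowest muscles. The log2 fold change was 0.27 (SE 0.33, adjusted p = 0.976 from edgeR), and −0.25 without these libraries.

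Pairs of the 8 genes were compared over the muscles. The 21 pairs without *Myom3* had r between 0.15 and 0.94, while the 7 pairs with it had r between −0.32 and 0.19 (log2 CPM over 8 muscles). Leaving out the 2 muscles farthest from the median of 1 gene of the pair moved several *Myom3* pairs. Its r became 0.49 with *Ttn*, 0.48 with *Obsl1*, 0.73 with *Speg* and 0.64 with *Unc45b*. With *Myom1*, *Myom2* and *Smyd1* it was 0.05, −0.28 and −0.01. By Pearson's r, 2 of the 28 pairs had an adjusted p under 0.05 in exact permutation tests. *Ttn* and *Obsl1* had r = 0.94 and rho = 0.83 (exact permutation p = 0.00179 and 0.0154, adjusted 0.025 and 0.0871), and r = 0.70 without the 2 muscles farthest from the median of *Ttn*. *Myom1* and *Myom2* had r = 0.93 and rho = 0.88 (exact permutation p = 0.00114 and 0.00724, adjusted 0.025 and 0.0871), and r = 0.87 without the 2 farthest muscles. By rho, 0 pairs passed.

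These pairs differed in how they depended on the length trend. After its removal, r was −0.03 for *Ttn* and *Obsl1* but 0.90 for *Myom1* and *Myom2*, with longest transcripts of 5.65 and 5.08 kb. The value for *Ttn* and *Obsl1* depends on the trend at 107 kb, the length of *Ttn*, where it is poorly determined. Lengths were not capped for these r. *Obsl1* and *Smyd1* had r = 0.69 before and 0.80 after, and *Obsl1* and *Unc45b* 0.66 and 0.67. Before removal, neither pair passed (adjusted p = 0.196 for both r by exact permutation). Without the 2 muscles farthest from the median of *Obsl1*, their r before removal was 0.40 and 0.54. The values after removal are descriptive.

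**Figure D5:**
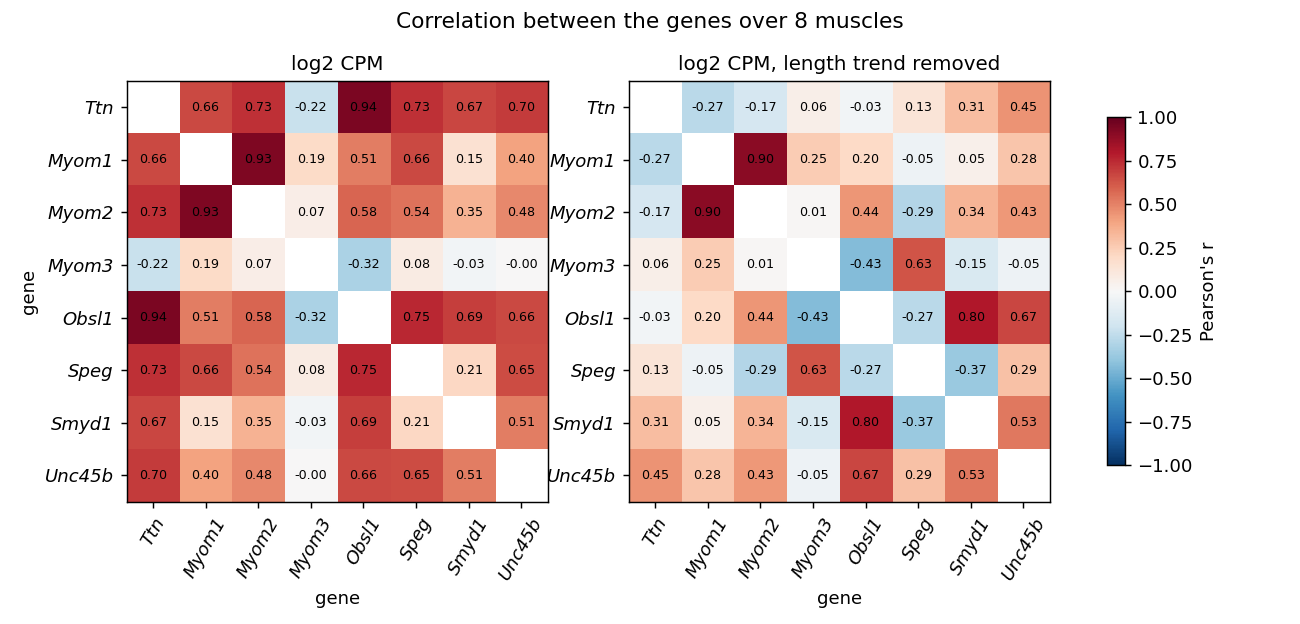
Pearson's r between each pair of the 8 genes over the 8 muscles, from log2 CPM (left) and after removal of the length trend (right), with red for positive and blue for negative values. The *Myom1* and *Myom2* pair stays at 0.93 and 0.90, while *Ttn* and *Obsl1* go from 0.94 to −0.03.

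The genes most like each of the 8, by Pearson's r of deviations from the genotype mean over 8 muscles, are given as a description, since many genes reach a high r with so few muscles. For *Ttn* they were *Acp2* (0.994), *Mre11a* (0.993) and *Rragd* (0.990), and 299 genes exceeded 0.9. For *Obsl1* they were *Tirap* (0.990), *Acot6* (0.985) and *Rnf144b* (0.985), with 306 genes above 0.9. For *Myom1* they were *Cpeb4* (0.996), *Ahnak* (0.986) and *Usp4* (0.978), and for *Myom2* *Esyt3* (0.995), *Zfp654* (0.977) and *Myom1* itself (0.972). *Myom2* was thus the only one of the 8 to have another of them among its nearest 3. For *Myom3* they were *Ulk3* (0.985) and *Yipf2* (0.975), and for *Speg* *Clcn4* (0.984), *Adamts20* (0.980) and *Eif4ebp2* (0.978). For *Smyd1* they were *Tfb1m* (0.965), *Trove2* (0.955) and *Hemk1* (0.952), with 22 genes above 0.9, and for *Unc45b* *Ttyh2* (0.978), *Ogt* (0.971) and *Srpr* (0.970), with 28. Some of these genes rest on few counts, with means of 0.375 CPM for *Esyt3*, 0.933 CPM for *Acot6* and 1.06 CPM for *Adamts20*.

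Genes whose products work with the 8 were read from lists of binding partners, chaperones and regulators. Over all 12542 genes tested, 5.29% had an unadjusted p under 0.05 by edgeR, the share to set beside each count below. Of 20 tested genes of titin-binding and titin-signalling proteins, 0 had an unadjusted p under 0.05 by edgeR, limma-voom or DESeq2, and their median log2 fold change was −0.11. *Actn3*, the α-actinin of fast fibres at the Z-disc, was at 9245 ± 2346 CPM in WTOld and 8715 ± 1516 CPM in C2-/-Old (SD, n = 4 each). *Neb*, given above, was the other most highly counted gene of that list.

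Of 15 M-band and thick filament genes, 2 were lower with an unadjusted p under 0.05 by edgeR and DESeq2, *Mybpc2* itself and *Myh7*, the slow myosin heavy chain. limma-voom gave 1, *Mybpc2*, which was also the 1 gene with an adjusted p under 0.05 by each tool. The log2 fold change of *Mybpc2* was −8.82 (SE 0.94, adjusted p = 0.0075 from edgeR), and −10.46 (adjusted p = 1.96e-07) without C2-/-Old 3. *Myh7* was at 2.62, 0.365, 2.05 and 20.9 CPM in WTOld, and at 1.85, 0.446, 1.74 and 0.624 CPM in C2-/-Old. Its log2 fold change was −2.47 (95% interval −4.69 to −0.26, unadjusted p = 0.0321, adjusted p = 0.914 from edgeR) with WTOld 4 and −0.51 (unadjusted p = 0.458, adjusted p = 0.973) without it, and the unadjusted p was also 0.0784 without C2-/-Old 2 and 0.0797 without C2-/-Old 4. *Myh4* (45231 ± 16346 CPM in WTOld and 48299 ± 9900 CPM in C2-/-Old) and *Ckm*, the muscle creatine kinase bound to the M-band (23231 ± 2325 and 21759 ± 1479 CPM), had fold changes of 0.09 and −0.09 on the log2 scale (SD, n = 4 each). The median of the list was −0.00.

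Of 13 genes of myosin folding and of partners of SMYD1 or UNC45B, 0 had an unadjusted p under 0.05 by any of the 3 tools, with a median of −0.07. *Hsp90ab1*, the HSP90 chaperone with which UNC45B acts, was at 1614 ± 370 and 1504 ± 277 CPM, and *Naca*, whose muscle isoform is a partner of SMYD1, at 1139 ± 355 and 1062 ± 187 CPM in WTOld and C2-/-Old (SD, n = 4 each). Of 10 tested genes of the triad and of SPEG partners, 0 had an unadjusted p under 0.05 by these tools, with a median of 0.03. *Atp2a1*, the calcium pump of fast fibres, was at 60221 ± 8743 and 53130 ± 2680 CPM, and *Des*, the gene of desmin, at 6129 ± 365 and 5911 ± 164 CPM (SD, n = 4 each).

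Of 5 genes tied to titin splicing, 0 had an unadjusted p under 0.05 by edgeR or limma-voom and 1, *Mbnl1*, by DESeq2, with a median of −0.03. *Mbnl1*, a splicing factor of muscle, was at 386, 457, 412 and 439 CPM in WTOld, and at 350, 390, 350 and 363 CPM in C2-/-Old. Only C2-/-Old 2 exceeded the lowest WTOld muscle, and the log2 fold change was −0.22 (SE 0.10, unadjusted p = 0.0544, adjusted p = 0.943 from edgeR). *Rbm24*, an RNA-binding protein of striated muscle splicing, was at 206 ± 55 and 187 ± 8.17 CPM (SD, n = 4 each). The table gives a total per gene, so the choice of titin exons was not analysed here.

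Of 10 transcription factor genes that regulate sarcomere genes, 0 had an unadjusted p under 0.05 by any of the 3 tools, with a median of −0.10. *Mef2c* was at 654 ± 170 and 720 ± 79.1 CPM and *Mef2d* at 475 ± 26.3 and 417 ± 52.4 CPM in WTOld and C2-/-Old (SD, n = 4 each). The log2 fold change of *Mef2d* was −0.19 (SE 0.12, adjusted p = 0.968 from edgeR).

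Markers of the fibre types and of other cells were examined beside the 8 genes. The 3 fibroblast markers were all higher in C2-/-Old, *Dcn* and *Col1a1* with an unadjusted p under 0.05 but no adjusted p under 0.05 by edgeR, while DESeq2 gave *Col1a1* an adjusted p under 0.05 and limma-voom neither. They summed to between 260 and 344 CPM in WTOld and between 377 and 469 CPM in C2-/-Old. Of 3 tendon markers, *Tnmd* had an unadjusted p under 0.05, and the list summed to between 30.1 and 103 CPM in WTOld and between 45.6 and 156 CPM in C2-/-Old. Of 8 slow fibre markers, *Myl2* and *Myh7* were lower with an unadjusted p under 0.05 by edgeR and DESeq2, and *Myl2* alone by limma-voom. Fast fibre, type IIa, smooth muscle, endothelial, macrophage, satellite cell, Schwann cell, adipocyte, blood and immediate early markers had 0 genes with an unadjusted p under 0.05 by edgeR, and limma-voom and DESeq2 gave the same count except for *Adipoq* in DESeq2. Of the cardiac markers, *Nppa* was at 0 in all 4 WTOld muscles and at most 0.177 CPM in C2-/-Old, and *Myh6* lay between 0.328 and 6.21 CPM. The part of these cells in the values of the 8 genes was not tested.

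Where each gene lies limits what its counts can show. In GENCODE vM21 (GRCm38), *Ttn* is on the minus strand, while the deposited table gives plus. Exons of *Myom1* share 1.98% of their bases with *Myl12a* on the opposite strand, those of *Unc45b* share 9.04% with antisense transcripts, and those of *Ttn* 0.388%. Use of the strand in counting is not given in the sources used here, so reads in these stretches cannot be told apart. Exons of *Myom2*, *Myom3*, *Obsl1*, *Speg* and *Smyd1* share no base with another gene of that annotation. The table's interval for *Myom1* runs past its end in GENCODE, 71126856, across *Lpin2* and *Emilin2*, and that for *Obsl1* also covers *Tmem198* and most of *Chpf*. The exons used in counting are not given in the sources used here.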

How the data were processed

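RNA-seq libraries of TA muscle, 4 WTOld and 4 C2-/-Old, were grouped by their titles. The authors deposited expected counts per gene, not normalized, and TPM computed from the same reads, aligned to GRCm38.p6 with HISAT per the labels and methods. Bowtie2 is also named among the tools in the labels. The methods name featureCounts, yet between 5.5% and 6.53% of the count values are not whole, and the counts were rounded. The authors' own fold changes and p-values, also in the table, were not used, nor were 8 further columns of per-sample values. Totals per library lay between 25425993 and 29747692, and 3 counts, the smallest level taken as shown, between 0.101 and 0.118 CPM, which covers counting error only.

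Genotypes were compared with edgeR's quasi-likelihood test (edgeR 4.0.16, R 4.3.3) with TMM factors, edgeR's default filter and Benjamini-Hochberg adjustment over 12542 genes. Two-sided exact permutation tests and correlations used scipy 1.17.1, pandas 2.3.3 and Python 3.11.15 on log2 CPM with a prior count of 2. The test was tried on simulated counts. Length trends were loess fits of log2 CPM on the log of the longest transcript. Alternatives were RLE factors, library totals alone, limma-voom (limma 3.58.1), DESeq2 1.42.0, filters, the replicate block, length offsets and leaving out each muscle. Offsets capped at 20 kb, and leaving out WTOld 1 and 2 together, were chosen after seeing the data.

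The genes and lists were chosen with earlier results of these data known. Named beside the 8 were *Mybpc2*, the 2 most highly counted genes of each list with those at an unadjusted p under 0.05, and the 3 genes most like each of the 8. Some genes that this rule names are not reported here. Replicates of a group differed beyond counting error in every pair, so no library was counted as a repeat. Promoters are RefSeq sequences of GRCm38.p6. Marker *Myl7* was not analysed here.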

Additional observations from a re-analysis of the deposited data

Results flagged for a closer look

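None of the 8 genes and none of the ratios between them held a muscle far from the other 3 of its group by Dixon's test of the gap to the nearest value over the range. Over these and the other named genes, 56 groups of 4 muscles were examined and 4 were flagged, while chance flags about 1 in 20 groups. *Mybpc2* was at 38.3 CPM in C2-/-Old 3 and between 3.85 and 4.35 CPM in the other C2-/-Old muscles. *Myh7* was at 20.9 CPM in WTOld 4 and between 0.365 and 2.62 CPM in the other WTOld muscles. *Mef2d* was at 436 CPM in WTOld 1 against 488 to 489 CPM, and *Ckm* at 19560 CPM in C2-/-Old 2 against 22228 to 22706 CPM.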

How the results depend on the processing

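No alternative brought any of the 8 genes past a threshold (lowest adjusted p 0.683 and lowest unadjusted p 0.0721, both with a muscle left out). *Myom3* and *Smyd1* kept their direction under all 18 alternatives. With length offsets, *Ttn* was at −0.06 and *Speg* at −0.07 (−0.08 with lengths capped at 20 kb). Without WTOld 1 and 2 together, the log2 fold change was −0.22 for *Ttn*, −0.17 for *Myom2*, −0.01 for *Obsl1*, −0.13 for *Speg* and −0.0028 for *Unc45b*, each turned from above 0. With library totals alone, *Myom1* was at 0.0011 in edgeR and at 0.02 as a difference of mean log2 CPM. Leaving out each muscle in turn gave 0.04 to 0.48 for *Ttn*, −0.16 to 0.05 for *Myom1*, −0.04 to 0.25 for *Myom2*, −0.41 to −0.15 for *Myom3*, 0.11 to 0.39 for *Obsl1*, −0.04 to 0.16 for *Speg*, 0.05 to 0.2 for *Smyd1* and −0.0019 to 0.22 for *Unc45b*. The cause was not tested.

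Over all genes, 4 calls became 38 in DESeq2, 7 without WTOld 1 and 2, and 4 to 7 with each muscle left out, the highest without WTOld 2. Leaving out each muscle moved the count with an unadjusted p under 0.05 from 663 to between 506 and 983.

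Same-numbered muscles of the 2 groups had correlations of 0.267, 0.042, −0.0507 and 0.0212 for numbers 1 to 4. The highest correlation with a muscle of another number was 0.0203, 0.0944, 0.181 and 0.202. The same number thus gave the higher value for number 1 alone. With 4 muscles a group, these values cannot decide whether the numbers mark pairs or a batch. With the replicate block, *Ttn* was at 0.38 (adjusted p = 0.955), *Obsl1* at 0.29 (0.951), and 4 genes were called.

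With 4 muscles a group, a 1.5-fold rise of *Ttn* lies inside its 95% interval. *Myom3* rests on 196 to 438 counts per library, the fewest of the 8 genes.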
